A study of Mus musculus with 6 samples.

Results

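The genes described here encode the linker histones and the core histones H2A, H2B, H3 and H4 of the replication-dependent gene clusters. They were chosen by name, as the rows with a current or older clustered histone symbol or an H1f symbol. Rows named as pseudogenes were left out. Hist1h2al and H2ac14 have histone names and were kept, although GENCODE M21 types them as a processed and an unprocessed pseudogene, with no coding model. The rule matched 67 of the 55291 rows: 7 linker, 19 H2A, 17 H2B, 12 H3 and 12 H4 genes. It also takes in H1f0 and H1f10, linker histones known as replacement forms that are made outside S phase, so the genes are called histone genes below.

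RAW264.7, a macrophage-like cell line of the mouse that can form osteoclasts, the multinucleated cells that resorb bone, was the source of 6 RNA-seq libraries. Both groups received RANKL, the cytokine that drives osteoclast formation, at 50 ng/mL, and were sampled at day 4. Cells of the shCtrl group (n = 3) held a control short hairpin RNA and are labelled WT in genotype, and those of the shUSP8 group (n = 3) held one that targets the deubiquitinase gene Usp8 and are labelled as a knock down. The sources do not say whether libraries of a group are separate cultures. A p-value thus sets the group difference only against the scatter of these libraries, and that scatter may be technical. Nor do they say whether each hairpin is 1 clone or a pool, how many hairpin sequences were used, or whether poly(A) RNA was selected.

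Core histones form the octamer around which DNA is wound, as pairs of H2A, H2B, H3 and H4, and linker histones bind the DNA that enters and leaves it. Most of these genes lie in clusters, lack introns and are transcribed in S phase, when new DNA has to be packaged. Their messages usually end just after a conserved stem-loop in place of a poly(A) tail, and the stem-loop binding protein SLBP holds that loop during 3′ end formation, export and translation. Some members can also give longer, polyadenylated messages, a form known from cells that have left the cell cycle. Osteoclasts arise from dividing precursors that leave the cycle as they fuse.

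The stem-loop was looked for in the longest coding transcript of each gene in GENCODE M21 (GRCm38), as a 6-base arm GGNNNT, a loop of 4 bases and the reverse complement of the arm, on the transcript strand. It is printed here because it is what sets the messages apart by the form of their 3′ end. In each 30-base stretch below, given 5′ to 3′ as transcript sequence, the capitals mark the arms of the stem.
H1f2: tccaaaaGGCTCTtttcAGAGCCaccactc
H1f3: ctcaaacGGCTCTtttcAGAGCCacccaca
H2ac18: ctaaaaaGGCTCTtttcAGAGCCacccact
H3c15: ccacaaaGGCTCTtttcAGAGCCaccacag
H4c8: aaccaaaGGCCCTtttcAGGGCCgcccaca
H4c9: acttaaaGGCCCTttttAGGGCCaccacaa
H4c14: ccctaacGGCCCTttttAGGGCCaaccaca
The 4 stretches from H1f2, H1f3, H2ac18 and H3c15 have the same arms and loop, and the H4 stretches have arms with other letters. They lie at chr13:23739505-23739534, plus strand (H1f2), chr13:23555780-23555809, plus strand (H1f3), chr3:96246025-96246054, plus strand (H2ac18), chr3:96238478-96238507, minus strand (H3c15), chr13:23531451-23531480, plus strand (H4c8), chr13:22040959-22040988, minus strand (H4c9) and chr3:96262932-96262961, minus strand (H4c14). All are in the 3′ UTR of the gene, and the stem in capitals begins 24 to 58 bases after the stop codon. In the members that have it, the intact loop starts 21 to 58 bases after the stop, and 22 of 47321 other transcripts (0.0465%) hold the pattern in the first 100 bases of a 3′ UTR.

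What follows the loop differs between genes. The H2ac18 model ends 35 bases after it and the H4c8 model 46 bases after it, whereas those of H3c15, H4c9, H1f2, H4c14 and H1f3 run on for 377, 330, 840, 1257 and 4884 bases. H1f0 and H2bc21 have long 3′ UTRs of 1198 and 2192 bases in which no intact loop was found. Poly(A) signal hexamers (AATAAA or ATTAAA, capitals) near the ends of 4 models are printed to show the other form of message.
H1f0: ttaaaactttaaAATAAAactggaaaggaa
H1f2: gtgtatgcttctAATAAAaagcgtttagtt
H2bc21: gttattattattAATAAAgttaccgattag
H4c9: ggttctgtttacATTAAAagtattctatgc
They lie at chr15:79030471-79030500, plus strand (H1f0), chr13:23740330-23740359, plus strand (H1f2), chr3:96223705-96223734, plus strand (H2bc21) and chr13:22040639-22040668, minus strand (H4c9), with the hexamer starting 21 to 26 bases from the end of the model. An annotated model that runs past the loop shows that such a transcript has been recorded, not that these cells made it.

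Across the 6 libraries, total expected counts lay between 19973522 and 20213939. Usp8, the targeted gene, had 2785, 2561 and 2645 counts in shCtrl_1 to shCtrl_3 against 656, 720 and 718 in shUSP8_1 to shUSP8_3 (edgeR adjusted p = 1.47e-10). The library shUSP8_2 stood apart in fragment length, estimated at 367 nt against 300 ± 6.50 nt (SD, n = 5) in the others, which shortens the effective length of short transcripts: for H4c8 it was 0.649 of the mean of the other 5 libraries, for H2ac18 0.769, for H3c15 0.907 and for H1f0 0.962. Results are therefore also given with offsets, that is, with the effective length of each gene in each library entered in the fit. Over the 12440 genes tested, 14.9% were called lower and 17.8% higher with shUSP8 (edgeR adjusted p under 0.05). Of the osteoclast markers, 5 of 9 were called lower and 4 were not called, with a summed level of 12968 to 13271 CPM in shCtrl and 10596 to 10933 CPM in shUSP8, where CPM are counts scaled to equal library size. Macrophage markers were called higher in 4 of 6 (Adgre1, Cd14, Lyz2 and Itgam) and lower in 2 of 6 (Csf1r and Cd68). They summed to 4261 to 4444 CPM in shCtrl and 5762 to 6333 CPM in shUSP8. Neutrophil markers summed to 0.310 to 0.405 CPM in shCtrl and 0.724 to 0.878 CPM in shUSP8, with Ly6g, Elane, Camp and Ngp at 0, and 1 of the list's 7 genes was tested and called higher. Among lymphocyte markers, Cd3e, Cd3d, Ms4a1 and Ncr1 were at 0. Of 6 stromal markers, 4 were tested, with adjusted p from 0.110 (Col1a1) to 0.509 (Pdgfrb), and Bglap was at 0. The library shCtrl_3 stood apart for the collagen genes. Col1a1 had 16, 31 and 116 counts in shCtrl_1 to shCtrl_3 and 10, 10 and 8 in shUSP8. In shCtrl, Col1a2 had 5, 14 and 37 counts and Col3a1 5, 11 and 51, while Pdgfrb had 10, 5 and 7. These library values were added after they were seen. What part these differences have in the histone values was not tested, and in bulk RNA fewer cells of a type and less RNA per cell cannot be told apart.

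Most histone genes had few counts. Whether poly(A) RNA was selected is not known, so few counts of messages without a poly(A) tail need not mean low expression. A mean expected count of at least 10 was reached by 31 of the 67, that is by 5 linker, 7 H2A, 9 H2B, 4 H3 and 6 H4 genes. Around that limit, the means just below it were 5.78 (H2bc18), 5.83 (H1f5), 6.02 (H3c8), 6.81 (H2bc13), 8.24 (H4c12), 9.33 (H4c4) and 9.88 (H4c3), and those just above it were 11.6 (H4c11), 11.8 (H3c2), 12.5 (H3c7), 12.6 (H2bc9), 12.9 (H4c1) and 14.8 (H2bc11). The test's own filter on low counts kept 33 members, the 31 together with H4c3 and H4c4. The other 34 were not tested. Of these, 5 were listed at 0 in every library: H2ac1, H2ac14, H2bc1, H3c14 and Hist1h4m.

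Levels between genes are compared as TPM, the share of all transcripts after division by effective length. Because poly(A) selection is not known, these shares describe the messages that were captured. Summed over the members and averaged over the 6 libraries, the H2A genes held 34.1% of histone TPM, linker 33.3%, H2B 17.3%, H4 11.6% and H3 3.77%. By counts, which favour long transcripts, linker genes held 61.3% and H2A genes 9.63%. The highest member of each family by mean TPM was H2ac18 (278 TPM) for H2A, H1f0 (234 TPM) for the linkers, H2bc4 (111 TPM) for H2B, H4c8 (45.6 TPM) for H4 and H3c15 (31.1 TPM) for H3. Next to them stood H1f2 (166 TPM), H2ac19 (62.8 TPM), H2bc21 (51.5 TPM), the annotated pseudogene Hist1h2al (50.0 TPM) and H4c9 (44.3 TPM). The H4 pair does not differ beyond its spread, since H4c8 ranged from 40.5 to 51.3 TPM and H4c9 from 40.8 to 50.6 TPM over the libraries. For the shortest messages TPM is unsure: Hist1h2al, whose longest transcript is 339 nt, had an effective length of 27.7 nt in shUSP8_2 and 62.8 nt on average in the others.

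The question of the comparison is what reduced Usp8 changes in cells forming osteoclasts. With shUSP8, 10 histone genes fell, 1 rose and 22 of the 33 tested were not called (edgeR quasi-likelihood test, adjusted p under 0.05). That is 30.3% lower and 3.03% higher, where 14.9% of the 12440 genes tested in the whole table were called lower and 17.8% higher. The falls were in H1f0, H1f2, H1f3, H2ac18, H2bc21, H2bc4, Hist1h2bq, H2bc6, H2bc9 and H3c15, and the rise was in H1f10. The median log2 fold change of the tested histone genes was -0.32, against -0.00 over all genes tested, and 24 of 33 had a negative value. Groups did not overlap in CPM for 15 of 33 (45.5%), close to the 47.8% over all genes; 12 of these were lower (36.4%, against 23.1%) and 3 higher (9.09%, against 24.6%).

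With the offsets, 8 members were called lower and 1 higher, where 9.9% of all genes were called lower and 12.2% higher. On log2(TPM + 1) it was 7 lower and 2 higher, where 4.02% of all genes were lower and 19.1% higher. Depth went with the calls: of the 8 members with a mean count of at least 200, 6 fell and 2 were not called (H2ac19 and H4c9), whereas of the other 25 tested, 4 fell, 1 rose and 20 were not called. SEs of the log2 fold change ran from 0.05 (H1f0) to 0.59 (H2ac19).

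**Figure D1:**
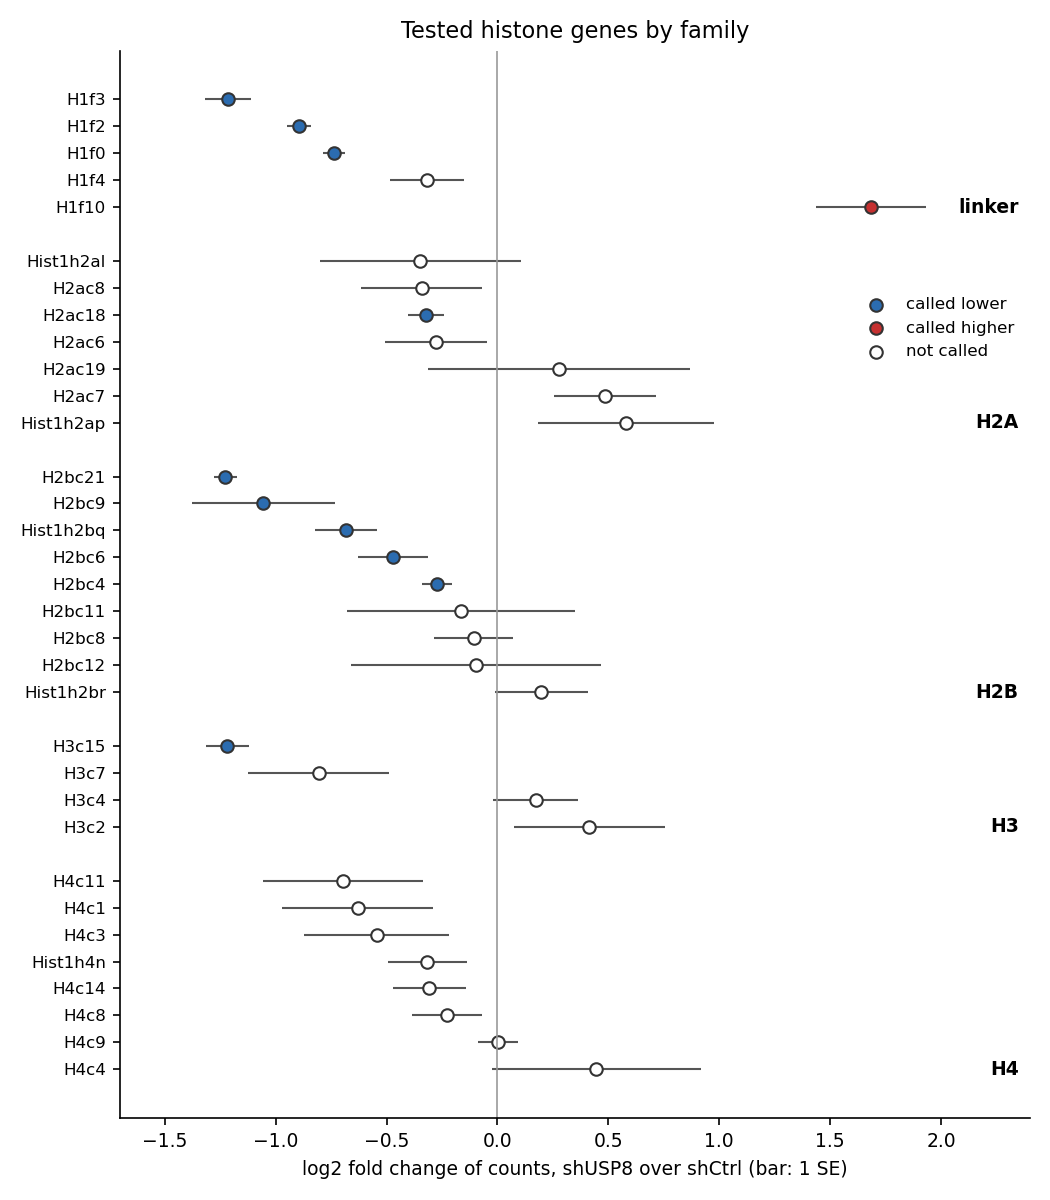
Fitted log2 fold change of counts, shUSP8 over shCtrl, for the 33 tested histone genes by family (x axis, bars are 1 SE; y axis, genes). Blue points are the 10 genes called lower and the red point is H1f10, the 1 gene called higher; open points were not called, and the H4 block holds open points alone.

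Linker histones held most of the histone counts and 3 of the 10 falls. Counts are given below for shCtrl_1 to shCtrl_3 first and for shUSP8_1 to shUSP8_3 second. H1f0, the replacement linker histone of non-dividing cells (chr15:79028450-79030504, plus strand), had 8644, 8694 and 8777 expected counts in shCtrl and 5723, 5407 and 5290 in shUSP8. The groups lay far apart, with all of the controls above. In CPM this was 443 ± 8.72 against 266 ± 11.4 (SD, n = 3 per group), or 1.67-fold lower (log2 fold change -0.74, SE 0.05; adjusted p = 3.73e-07). H1f2 (chr13:23738808-23740367, plus strand), one of the clustered linker genes, had 4513, 4587 and 4749 counts against 2555, 2773 and 2481. It fell 1.86-fold without overlap (log2 fold change -0.89, SE 0.05; adjusted p = 1.21e-07), and its level was 235 ± 8.96 CPM in shCtrl and 127 ± 6.55 CPM in shUSP8.

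H1f3 is another clustered linker gene (chr13:23553262-23560686, plus strand) at a level far below those of H1f0 and H1f2, 1.37 TPM. Its counts were 238, 215 and 248 in shCtrl and 103, 111 and 102 in shUSP8, again well separated. The fall was 2.32-fold (log2 fold change -1.22, SE 0.10; adjusted p = 2.50e-06). H1f4, a clustered linker gene too, was not called: 83, 62.0 and 82.3 counts against 61.4, 70.7 and 59.3 overlapped (log2 fold change -0.32, SE 0.17; adjusted p = 0.169). The remaining clustered linker genes, H1f1 and H1f5, were too low to test.

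H1f10 went the other way. This linker gene stands alone on chromosome 6 (chr6:87980421-87981637, minus strand) and encodes a divergent H1 known as H1x. It had 12, 11 and 13 counts in shCtrl and 39, 36 and 46.9 in shUSP8. Every shUSP8 value was above the controls, with 0.612 ± 0.0581 CPM in shCtrl and 1.98 ± 0.284 CPM in shUSP8. The rise was 3.21-fold (log2 fold change 1.68, SE 0.25; adjusted p = 0.000275). With offsets it was 1.69 (adjusted p = 0.00186). An antisense gene, Gm5577, overlaps 213 bases of H1f10 and had 0, 1 and 0 counts in shCtrl against 4, 2 and 7.09 in shUSP8. The H1f10 share of linker TPM was 0.150% in shCtrl and 0.845% in shUSP8, while H1f0 (56.8% and 58.7%) and H1f2 (42.0% and 39.1%) made up nearly all linker message in both groups.

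**Figure D2:**
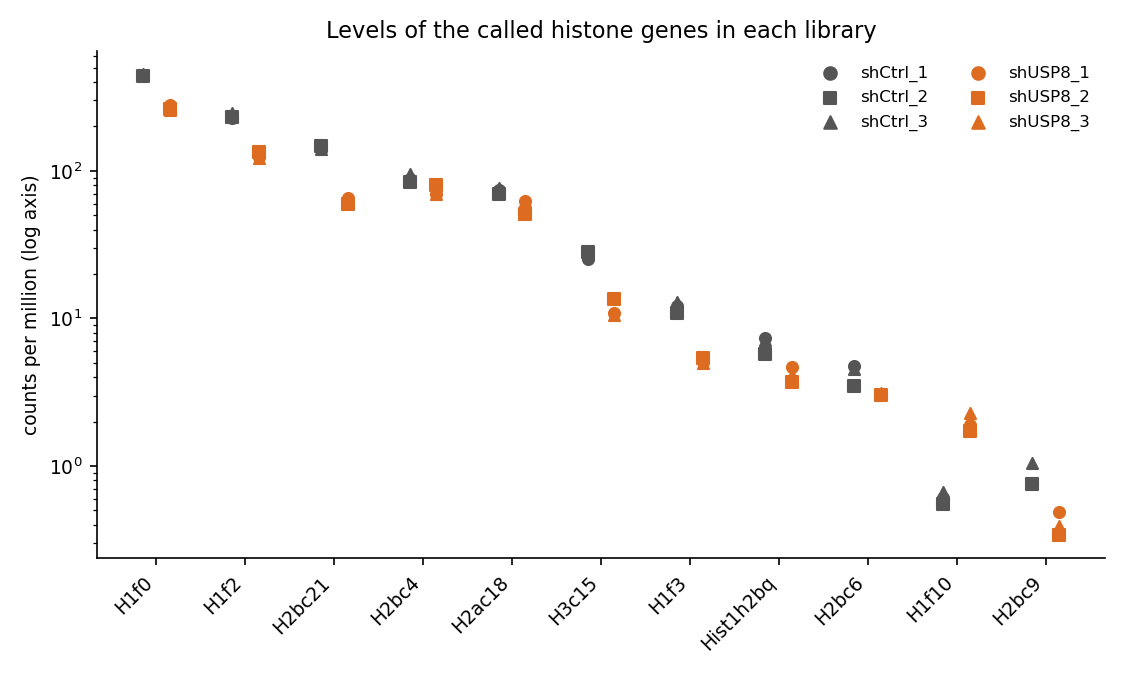
CPM (y axis, log scale) of the 11 called histone genes in each library (x axis, genes in order of mean count; grey, shCtrl; orange, shUSP8; marker shape, replicate number). In 10 genes the orange points lie below the grey ones, by little for H2bc4 and H2ac18, and in H1f10 above them.

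The promoters of H1f2 and H1f3, the clustered linker genes that fell, are printed because linker genes of the cluster share promoter boxes that set them apart from core histone genes. Both are RefSeq windows (GRCm38.p6) from 250 bases before to 50 bases after the annotated start. Capitals mark CCAAT, the H1 box AAACACA and TATAAA, searched on both strands.
H1f2: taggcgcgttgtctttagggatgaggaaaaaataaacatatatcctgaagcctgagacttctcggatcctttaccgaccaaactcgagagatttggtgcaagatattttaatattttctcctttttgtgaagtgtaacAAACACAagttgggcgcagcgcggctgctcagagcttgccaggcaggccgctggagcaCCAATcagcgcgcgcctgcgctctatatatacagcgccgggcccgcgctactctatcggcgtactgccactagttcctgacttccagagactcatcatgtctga
H1f3: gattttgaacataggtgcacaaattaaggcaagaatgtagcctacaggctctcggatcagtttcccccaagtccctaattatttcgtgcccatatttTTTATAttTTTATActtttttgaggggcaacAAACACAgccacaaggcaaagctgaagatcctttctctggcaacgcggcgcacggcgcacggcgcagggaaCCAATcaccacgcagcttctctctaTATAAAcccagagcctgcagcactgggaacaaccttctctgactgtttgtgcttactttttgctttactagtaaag
These windows are chr13:23738557-23738856 and chr13:23554782-23555081, both on the plus strand; the RefSeq start of H1f3 lies inside the GENCODE model used for its coordinates above. Both windows hold a CCAAT and an AAACACA, and that of H1f3 also has TATAAA. Of the 67 members 60 matched a RefSeq window, by symbol and position; H2ac14, H2bc21, H2bc4, H3c1, H3c7, H4c14 and Hist1h2al had none. AAACACA was in 4 of 7 linker windows (57.1%), in 8 of the 60 histone windows and in 7.18% of all 32851 windows, and no motif searched was in those of H1f0 and H1f10. CCAAT was found in all 17 H2A, 15 H2B and 10 H3 windows, in 3 of 11 H4 windows and in 37.41% of all windows. The octamer ATTTGCAT, known from H2B promoters, was in 6 of 15 H2B and 6 of 17 H2A windows and in 1.74% of all. These are matches of letters in a window and were not related to the fold changes by any test.

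Among H2A genes, 1 of 7 tested fell and 6 were not called. H2ac18 (chr3:96245497-96246082, plus strand), one of a pair of near-identical genes, had 1459, 1376 and 1488 counts against 1279, 1055 and 1286. The groups did not overlap but lay close, and the change was small: 73.4 ± 3.71 in shCtrl and 58.7 ± 6.74 CPM with shUSP8 (log2 fold change -0.32, SE 0.08; adjusted p = 0.0104). On log2(TPM + 1) the call was lost (-0.11, adjusted p = 0.218), as it was without shCtrl_3 (adjusted p = 0.0581). Its counts are uncertain, since all of its 150-base windows also occur in the antisense gene Gm20633, and part of them in the partner copy H2ac19 and in Gm20634 on the same strand. Gm20633 fell as well (log2 fold change -0.48, adjusted p = 0.00940), as did Gm20634 (-0.22, adjusted p = 0.0333), and whether the counting used strand is not given in the sources used here.

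H2ac19, which encodes the same protein, had 218, 219 and 147 counts in shCtrl and 109, 441 and 192 in shUSP8. In shUSP8_2 it took 29.5% of the pair's counts, against 7.88% to 13.7% in the other libraries, so the split between these copies moved with that library. Entered as 1 row in the fit over all genes, the pair fell in counts without overlap (log2 fold change -0.24, SE 0.05, edgeR adjusted p = 0.00402). Its level was 83.3 ± 2.37 CPM in shCtrl and 70.7 ± 2.56 CPM in shUSP8. This fit had no offsets, and the pair was not tested with them or in TPM. Mean TPM of H2ac18 was 289 in shCtrl and 267 in shUSP8, and that of H2ac19 was 49.1 and 76.5. In shUSP8_2 H2ac19 had 150.7 TPM. The copies thus moved in opposite directions in TPM, and a fall of the pair is shown for counts only. Other short copies had an unusual shUSP8_2 as well. Hist1h2al had 54.2, 57.6 and 56.4 counts in shCtrl and 69.1, 15.6 and 53.3 in shUSP8.

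Of the H2ac7 windows 59.3% also occur in another gene, so its counts are uncertain too. H2ac7 had 30.8, 29.1 and 18.6 counts in shCtrl and 39.2, 40.1 and 37.0 in shUSP8. Its groups did not overlap, yet it was not called (log2 fold change 0.49, SE 0.23; adjusted p = 0.127) except on the TPM scales, where it was higher (0.66 on log2(TPM + 1), adjusted p = 0.0475). H2ac6 (-0.28), H2ac8 (-0.34) and Hist1h2ap (0.58) overlapped between groups and were not called. Summed over the 9 copies with a shared protein, which include H2ac6, H2ac7, H2ac8 and Hist1h2ap, the log2 fold change was 0.08 (SE 0.13; adjusted p = 0.665).

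H2B had the most falls, 5 of 9 tested. H2bc21, the cluster gene that encodes the H2be variant known from olfactory neurons (chr3:96221119-96223738, plus strand), had 2916, 2932 and 2738 counts in shCtrl and 1347, 1238 and 1256 in shUSP8. It dropped 2.34-fold, from 146 ± 3.71 to 62.3 ± 3.10 CPM, without overlap (log2 fold change -1.23, SE 0.05; adjusted p = 4.99e-09). None of its 150-base windows occurs in another annotated gene, so copies do not blur it. With offsets the value was -1.23 as well (adjusted p = 5.46e-06).

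H2bc4 (chr13:23684199-23692908, plus strand) is the H2B gene with most message per length. Its counts of 1727, 1657 and 1837 against 1432, 1667 and 1436 overlapped as they stand, and in CPM the groups were just apart at 83.7 to 94.9 against 69.9 to 80.5. The fall was small (log2 fold change -0.27, SE 0.07; adjusted p = 0.00930). It was lost with offsets (-0.25, adjusted p = 0.0702), on log2(TPM + 1) (adjusted p = 0.314), without shCtrl_3 (adjusted p = 0.0536) and without shUSP8_3 (adjusted p = 0.0571). H2bc21 held 29.8% ± 1.64 of H2B TPM in shCtrl and 17.8% ± 2.65 in shUSP8, while H2bc4 held 49.1% ± 1.58 and 57.3% ± 1.08.

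The other H2B falls were in low genes. Hist1h2bq (chr13:21806612-21810197, minus strand) had 146, 113 and 137 counts against 95.9, 77.3 and 84.9, which did not overlap (log2 fold change -0.68, SE 0.14; adjusted p = 0.00261). Of its windows 94.8% also occur in another gene, mainly Hist1h2br, which had 27.3, 33.3 and 29.0 counts against 33.1, 35.3 and 39.0 and was not called (0.20, adjusted p = 0.504). Which of the pair a fragment came from is thus uncertain. H2bc6 (chr13:23583670-23621124, minus strand) had 94.3, 68.5 and 88.2 counts against 62.1, 62.7 and 63.9 (log2 fold change -0.47, SE 0.16; adjusted p = 0.0394), and shares 450 bases of exon with H1f4. H2bc9 (chr13:23541714-23543392, minus strand) had 15.1, 15.1 and 20.2 counts against 10.1, 7.02 and 8.04 (log2 fold change -1.06, SE 0.32; adjusted p = 0.0251). Groups overlapped in neither. Leaving out a single library ended the H2bc6 call in 5 of 6 cases, with adjusted p from 0.0535 to 0.152, and the H2bc9 call likewise in 5 of 6, from 0.0509 to 0.106. The H2bc6 call was also lost with offsets (adjusted p = 0.115), library totals (0.0714), DESeq2 (0.188), limma-voom (0.0509) and on both TPM scales (0.236 and 0.26).

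Among the 4 H2B genes without a call were H2bc8 (log2 fold change -0.11), H2bc11 (-0.17) and H2bc12 (-0.10) along with Hist1h2br. In shUSP8_1, shUSP8_2 and shUSP8_3, H2bc12 had 49.3, 6.95 and 31.0 counts and H2bc11 had 4.21, 26.0 and 12.7, while their shCtrl values stayed within 27.4 to 32.4 and 13.0 to 18.7. Such copies were uneven between libraries of 1 group. Summed, H2bc4, H2bc6 and H2bc8, which share a protein, fell (log2 fold change -0.27, SE 0.07; edgeR adjusted p = 0.00759). That sum was fitted without offsets. Most of its counts are those of H2bc4 (mean 1626, against 73.3 for H2bc6 and 59.1 for H2bc8), whose own call was lost with offsets. The 5 copies H2bc7, H2bc11, H2bc13, H2bc15 and Hist1h2br had a summed value of -0.04 (SE 0.23, edgeR adjusted p = 0.909). Hist1h2br was placed in that sum by a model typed as nonsense-mediated decay. Its protein-coding model shares a protein with Hist1h2bq, yet Hist1h2bq and Hist1h2br were not summed together.

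Among H3 genes, 1 of 4 tested fell. H3c15 (chr3:96238108-96239127, minus strand) had 502, 560 and 528 counts in shCtrl and 222, 280 and 214 in shUSP8. It fell 2.33-fold, from 27.0 ± 1.46 to 11.6 ± 1.65 CPM, and the groups were well apart (log2 fold change -1.22, SE 0.10; adjusted p = 1.38e-06). With offsets it was -1.19 (adjusted p = 0.000379). Its near-copy H3c14 shares 59.4% of its windows and is listed at 0, and the same windows occur in Gm20634, which fell by 0.22 on the log2 scale. A fragment from those stretches cannot be placed by its sequence. H3c15 made up 75.8% ± 3.76 of H3 TPM in shCtrl and 54.9% ± 2.01 in shUSP8.

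H3c4 was not called, with 67.3, 71.6 and 51.2 counts against 73.6, 58.7 and 91.2 (log2 fold change 0.17, SE 0.19; adjusted p = 0.532). H3c7 had 16.1, 15.4 and 15.7 counts in shCtrl and 9.19, 7.13 and 11.8 in shUSP8, which did not overlap, and was not called (-0.81, SE 0.32; adjusted p = 0.0721). H3c2 (0.42, adjusted p = 0.386) was higher in each shUSP8 library without a call. The 8 H3 genes that share the protein of H3c15, summed, fell from 604, 665 and 615 counts to 323, 371 and 336 (log2 fold change -0.94, SE 0.07, edgeR adjusted p = 1.04e-06). Most of these counts are those of H3c15 itself (mean 384, against 68.9 for H3c4, the next highest). The sum thus does not show a fall of the other copies. The 4 with the other clustered H3 protein had 17.8, 20.5 and 10.3 counts against 22.7, 16.0 and 14.5 (0.10, SE 0.32; adjusted p = 0.836).

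No H4 gene was called among 8 tested in edgeR, and 0 had an unadjusted p under 0.05; of the 6 with a mean count of at least 10, DESeq2 and limma-voom called 0 as well. H4c9 had 296, 321 and 313 counts against 339, 288 and 349 and a log2 fold change of 0.00 (SE 0.09; adjusted p = 0.983). H4c8 had 147, 123 and 137 counts against 130, 90.6 and 143 (-0.23, SE 0.16; adjusted p = 0.308), lowest in shUSP8_2, where its TPM of 45.2 was within the range of the controls. H4c14 (-0.31), Hist1h4n (-0.32), H4c1 (-0.63), H4c11 (-0.70), H4c3 (-0.55) and H4c4 (0.45) were not called either; without shUSP8_2, H4c14 was called lower (-0.47, adjusted p = 0.0495). All 12 H4 genes encode the same protein, and their sum of 673, 645 and 655 counts against 636, 574 and 665 gave -0.14 (SE 0.07; adjusted p = 0.154).

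Copies within a family share sequence, so sums over each family are described as well, with no test. Summed linker genes had 695 ± 18.7 CPM in shCtrl and 403 ± 12.4 in shUSP8, a log2 ratio of -0.79. H2B sums were 255 ± 3.95 and 151 ± 3.56 CPM (-0.75), and H3 sums 32.8 ± 1.63 and 17.6 ± 0.975 CPM (-0.90). Single genes weigh heavily in these: H2bc21 alone went from 146 to 62.3 CPM and H3c15 from 27.0 to 11.6 CPM. By themselves the H2B and H3 sums thus do not show a fall across the family. The sums of H2A, 92.4 ± 2.47 and 79.3 ± 2.32 CPM (-0.22), and of H4, 33.5 ± 0.798 and 30.4 ± 2.45 CPM (-0.14), were closer. Groups did not overlap in any of these CPM sums. For H4 they were barely apart, with 32.59 CPM in shCtrl_2 and 32.47 CPM in shUSP8_3. As a share of library counts the H4 sums overlapped, at 0.00320% in shCtrl_2 and 0.00333% in shUSP8_3. The H4 ratio was -0.08 without shUSP8_2 and -0.07 with library totals.

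In TPM, the ratios of the sums lay nearer to 0 or above it. TPM divides by length and also lacks the library scaling factors used for CPM. Over all genes tested, the median log2 fold change was 0.11 on log2(TPM + 1) and -0.00 in the main fit. What part length and scaling have in the shift of the sums was not tested. The summed TPM ratios were -0.65 for linker, -0.34 for H2B and -0.60 for H3, without overlap, and 0.03 for H2A and 0.07 for H4, with overlap. The direction of the H2A and H4 sums depended on the scale. In shUSP8_2, the library with the longer fragments, H2A and H4 had their highest TPM sums of the group (490 and 161 TPM, against 363 and 409 and against 127 and 148 in the others). All 67 genes together went from 1109 to 681.5 CPM (log2 ratio -0.70), or -0.28 by TPM.

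**Figure D3:**
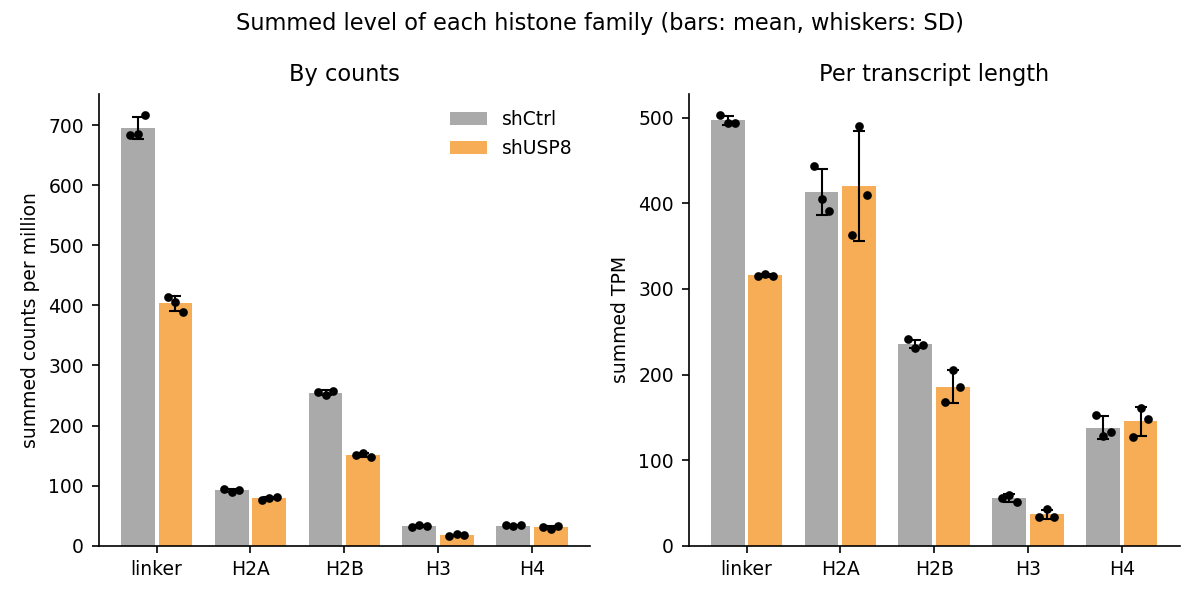
Summed level of each histone family by counts (left, y axis in CPM) and per transcript length (right, y axis in TPM); bars are group means, whiskers SD, dots the 3 libraries of each group. Linker, H2B and H3 bars are lower in shUSP8 on both scales, and H2A and H4 overlap between groups on the TPM scale.

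The calls were then arranged by the form of the annotated 3′ end. Of the 6 tested members with a long 3′ UTR and no intact stem-loop, 4 fell (H1f0, H2bc21, H2bc4 and Hist1h2bq), 1 rose (H1f10) and 1 was not called (Hist1h2br); their median log2 fold change was -0.48. Of the 17 whose model has the loop and runs over 100 bases past it, 5 fell (H1f2, H1f3, H2bc6, H2bc9 and H3c15) and 12 were not called, with a median of -0.47. Of the 9 whose model ends within 100 bases of the loop, H2ac18 fell and 8 were not called, with a median of -0.10. The 1 tested gene with no coding model, the annotated pseudogene Hist1h2al, was not called. The 17 members whose model ends before any loop were all too low to test. These classes differ in transcript length as well. Of the 17 tested members with a longest transcript of at least 1020 nt, 9 fell, 1 rose and 7 were not called. Of the 16 shorter ones, H2ac18 (586 nt) fell and 15 were not called. What part length, depth or 3′ end has in the calls was not tested.

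**Figure D4:**
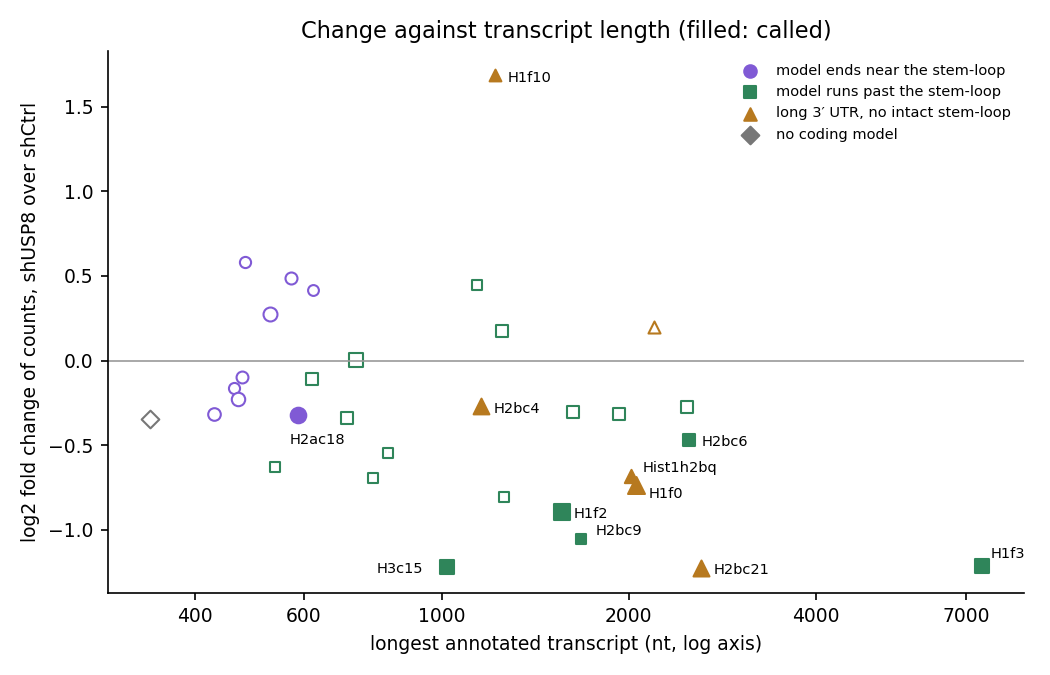
Log2 fold change of counts (y axis) against the longest annotated transcript (x axis, log scale, nt) for the 33 tested histone genes, by class of the 3′ end (colour and shape; filled, called; larger symbols, more counts). The falls lie at 1020 nt or more, apart from H2ac18 at 586 nt, as do 7 genes without a call, and H1f10 is the point above all others.

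By place, 55 of the members lie on chromosome 13, 10 on chromosome 3, and H1f0 and H1f10 alone on chromosomes 15 and 6. Of 26 tested on chromosome 13, 6 fell and 20 were not called (median log2 fold change -0.30). On chromosome 3, 3 of 5 fell (H2bc21, H2ac18 and H3c15), with a median of -0.32, and H2ac19 and H4c14 were not called.

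The stability of each call was followed over 17 alternative analyses. H1f0, H1f2, H1f3, H1f10, H2bc21, H3c15 and Hist1h2bq were called in all of them. H2ac18 lost its call in 3, H2bc4 in 5, H2bc9 in 8 and H2bc6 in 13, and no called gene changed direction. The alternative that summed copies of the same protein left Hist1h2bq apart from Hist1h2br, so it did not test that pair. For H1f3, a low gene, the value ranged from -1.28 to -0.61, the latter on log2(TPM + 1), a scale that understates changes of low genes.

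**Figure D5:**
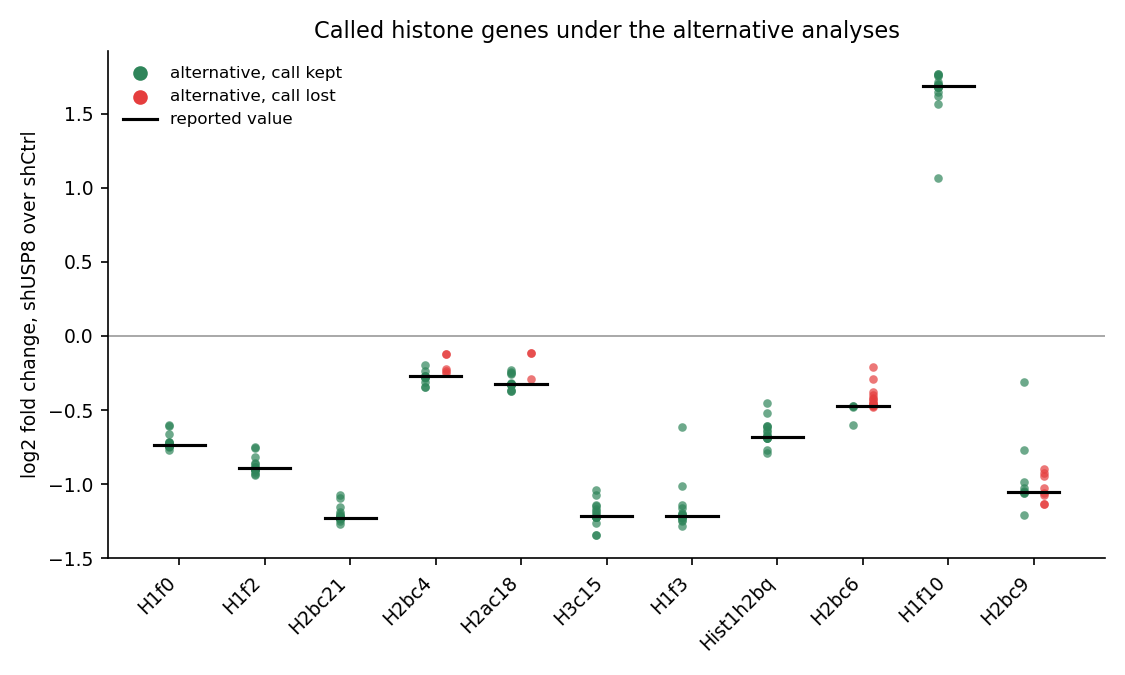
Log2 fold change of the 11 called histone genes (y axis) under the 17 alternative analyses (dots; green, call kept; red, call lost) beside the reported value (black line). H2bc4, H2ac18, H2bc6 and H2bc9 have red dots, and no dot of any gene crosses 0.

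Genes that make, carry and replace histones were counted from lists written from general knowledge. Over all genes tested 14.9% were called lower and 17.8% higher, which is the background for each count below; with offsets these shares were 9.9% and 12.2%. Of 26 factors of histone gene transcription and mRNA 3′ processing, 4 fell, 4 rose and 18 were not called (median log2 fold change 0.04). Cstf2, a cleavage factor of polyadenylation that also acts in histone mRNA 3′ processing, fell (-0.43, adjusted p = 5.26e-05), while Srrt, the cap-complex partner ARS2 (0.24, adjusted p = 0.00609), Cstf3 (0.29, adjusted p = 0.00615) and Upf1, a helicase of RNA decay (0.23, adjusted p = 0.00957), rose. With offsets Srrt and Cstf3 were no longer called. Tut7 (-0.26, edgeR adjusted p = 0.0282) and Casp8ap2 (-1.35, adjusted p = 0.0496) were called lower with offsets but not in the main fit. In shUSP8_1, Casp8ap2, a gene of this list also known as FLASH, had 135 counts against 284 to 298 in the other 5 libraries. Slbp, which encodes the stem-loop binding protein, had 29.5 ± 0.994 and 28.4 ± 1.06 CPM (-0.05, SE 0.06; adjusted p = 0.572), and Npat, the coactivator of histone genes at histone locus bodies, had 22.0 ± 1.13 and 23.0 ± 3.93 CPM (0.06, SE 0.12; adjusted p = 0.712). Both were named after their values were seen, and neither was called.

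The list of replication-independent variants held 9 tested genes, of which 4 fell and 5 were not called (median -0.17). Its largest fall was that of H2aw (-0.71, SE 0.08; edgeR adjusted p = 1.78e-05), a clustered H2A gene that the name rule does not reach. As a clustered gene, H2aw is not a variant of the kind the list is named for, though it is among the 4 that fell. H2aj (-0.26), H2ax, the H2A form phosphorylated at DNA breaks (-0.22), and H3f3a, a gene for a replacement H3 (-0.17), fell as well. With offsets H2aj (adjusted p = 0.122) and H2ax (adjusted p = 0.0528) were not called. Histone chaperones were mostly not called, 24 of 28, with Npm1 (-0.35) and Anp32e, a chaperone of an H2A variant (-0.33), lower and Daxx (0.33) and Hira (0.19), both chaperones of replacement H3, higher. With offsets, of these 4 only Npm1 was called (adjusted p = 0.216 for Daxx, 0.218 for Hira and 0.193 for Anp32e). Anp32a, not called in the main fit, was called lower with offsets (-0.33, edgeR adjusted p = 0.0384). Atrx, the partner of Daxx, had 523 counts in shUSP8_1 against 1987 to 2194 in the other 5 libraries.

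Since most histone messages are made in S phase, cell cycle genes were read beside them. Of 41 S phase and replication genes, 2 fell, 3 rose and 36 were not called, with a median log2 fold change of -0.02. The 4 called with the smallest p were Cdc25a (0.32), Gins2 (0.25) and Fen1 (0.20), higher, and Chek1 (-0.30), lower. With offsets Gins2 (adjusted p = 0.121), Fen1 (0.0891) and Chek1 (0.402) were not called. Mcm7, not called in the main fit, was called lower with offsets (-0.24, edgeR adjusted p = 0.0155). Of 24 genes of G2 and mitosis, 3 fell (Ccnb2 -0.45, Top2a -0.23, Nusap1 -0.30), Plk1 rose (0.30) and 20 were not called. With offsets the Plk1 call was lost (edgeR adjusted p = 0.0815) and Bub1 was called lower (-0.29, adjusted p = 0.0281). In this list shUSP8_1 stood apart for 3 uncalled genes: Mki67 had 1877 counts there against 4428 to 5265 in the other 5 libraries, Cenpe 268 against 716 to 909 and Cenpf 192 against 707 to 884. These 3, Atrx and Casp8ap2 were named after their values were seen. Without shUSP8_1, 3 genes of G2 and mitosis were called lower and 1 higher, 4 chaperones lower and 3 higher, and 4 factors of histone mRNA transcription and processing lower and 6 higher. Of 13 tested cyclin-dependent kinase inhibitors, pocket proteins and G1 cyclins and kinases, Cdkn1b, the inhibitor p27 (-0.40), Cdk6 (-0.30) and Cdk2 (-0.20) fell, Ccnd2, a D cyclin, rose from 0.288 to 0.925 CPM (1.66), and 9 were not called. With offsets Cdk6 (adjusted p = 0.0514) and Cdk2 (0.0504) were not called, and Cdk4 was called higher (0.26, edgeR adjusted p = 0.0215). The medians of these 3 lists lay between -0.09 and -0.02, while that of the tested histone genes was -0.32; none of these differences was tested.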

How the data were processed

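The deposited values are a table of expected counts and a table of TPM, each of 55291 genes by 6 libraries; per the submitters' processing notes the authors used RSEM, DESeq2 1.28.1 and mm10, with no role stated. Expected counts as deposited are estimated fragments per gene (7.16% are not whole), and TPM as deposited divides them by effective length. The aligner, the annotation release, the strand setting and the library preparation are not given in the sources used here. Columns named WT were matched to shCtrl and columns named KO to shUSP8, the only other genotype label, by number; 0 columns belonged to no sample.

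For the test, expected counts of the whole table were rounded, filtered by filterByExpr at a minimum count of 10 and a minimum total of 15, and scaled by TMM. The robust quasi-likelihood F test of edgeR 4.0.16, run under R 4.3.3 without covariates, compared the groups. A gene was called where its p, adjusted by Benjamini-Hochberg over all genes tested, was under 0.05. SE was taken as the size of the log2 fold change over the root of F. CPM uses TMM factors. Offsets are expected count over TPM per gene and library. The pipeline was tested on simulated counts. Alternatives were RLE, upper-quartile and library-total scaling, no filter, DESeq2 1.42.0, limma-voom and limma-trend (limma 3.58.1) on log2(TPM + 1) and log2(TPM + 0.1), offsets, a replicate block, each library left out, and copies with the same protein summed. Offsets without shUSP8_2 were added after the data were seen. Of 142604 listed transcripts, 140751 (98.7%) were found in GENCODE M21 (GRCm38), the source of coordinates, transcripts and coding sequences. Python 3.11.15 with pandas 2.3.3 and matplotlib 3.10.9 was used for the rest.

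The members and the gene lists were chosen with earlier results of these data known. All members with a mean count of at least 10 are named, with values by library for those called and for the highest in TPM of each family; lists name up to 4 called genes by smallest p. Slbp, Npat, the antisense and overlapping genes, and library values of members without a call were added after their values were seen. So were the list genes called with offsets but not in the main fit. No set was tested.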

Additional observations from a re-analysis of the deposited data

How the results depend on the processing

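Of the histone calls, 10 lower and 1 higher, the lower count ranged from 6 to 9 when each library was left out, with 6 without shCtrl_3, and the higher count was 2 on log2(TPM + 1) and on log2(TPM + 0.1), where H2ac7 was added; the other alternatives gave counts within 1.5 times. The log2 ratio of family sums with library totals alone was -0.71 for linker, -0.15 for H2A and -0.68 for H2B, and by summed TPM it was -0.65 for linker, -0.34 for H2B, -0.60 for H3 and, reversed, 0.0261 for H2A and 0.0742 for H4.

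The list counts, small as they are, moved more. For histone mRNA transcription and processing factors, the lower count of 4 was 1 with library totals and log2(TPM + 0.1), 2 with log2(TPM + 1) and with offsets without shUSP8_2, and 1 to 5 with a library left out (1 without shCtrl_1 or shCtrl_2, 2 without shCtrl_3). Their higher count of 4 was 8 with library totals, 1 with offsets, 0 with offsets without shUSP8_2 and 3 to 6 with a library left out. For variants, the lower count of 4 was 1 with library totals, both TPM scales and offsets without shUSP8_2, 2 with offsets and 1 to 4 with a library left out (2 without shCtrl_1, 1 without shCtrl_2), and the higher count of 0 was 1 on both TPM scales. For chaperones, the lower count of 2 was 1 with library totals and both TPM scales, 4 without a filter and 1 to 4 with a library left out (1 without any of the shCtrl libraries, 4 without shUSP8_1). Their higher count of 2 was 1 with DESeq2 and the replicate block, 0 with offsets with or without shUSP8_2, and 1 to 3 with a library left out (1 without shCtrl_2, shCtrl_3 or shUSP8_3). For S phase genes, the lower count of 2 was 0 with library totals, DESeq2 and both TPM scales, 1 with offsets with or without shUSP8_2 and with the replicate block, and 0 to 2 with a library left out (0 without any of the shCtrl libraries, 1 without shUSP8_3). Their higher count of 3 was 1 with offsets and 1 to 3 with a library left out (1 without shCtrl_3). For G2 and mitosis, the lower count of 3 was 5 without a filter, 0 on both TPM scales and 3 to 4 with a library left out. Their higher count of 1 was 7 with library totals, 3 without a filter, 4 on both TPM scales, 0 with offsets with or without shUSP8_2, 2 with the replicate block and 0 to 3 with a library left out (3 without shCtrl_1, 0 without shCtrl_2 or shCtrl_3). For kinase inhibitors and D cyclins, the lower count of 3 was 0 on both TPM scales, 1 with offsets and 2 to 5 with a library left out (5 without shUSP8_2), and the higher count of 1 was 4 with library totals, 2 with log2(TPM + 1), 3 with log2(TPM + 0.1) and 2 with offsets with or without shUSP8_2. The cause was not tested for any of these.

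Over all genes, calls were 1859 lower and 2218 higher, against 1172 and 3111 with library totals (median of all genes 0.07), 500 and 2379 with log2(TPM + 1) (median 0.11), 492 and 2388 with log2(TPM + 0.1) (median 0.13) and 1226 and 1511 with offsets. Libraries of equal number are not called pairs in the labels, and their deviations from the group means correlated at -0.01, 0.08 and -0.05; with the replicate block, 9 histone genes were lower (H2bc6 was lost, adjusted p = 0.0544) and 1 higher, and 1690 and 2021 of all genes. Within groups, chi-square per gene between libraries was at least 2.25, so no library was a repeat of another. Low counts limit 25 of the 33 tested histone genes, which had mean counts under 200, and the split between near-identical copies limits H2ac18, H2ac19, Hist1h2bq, Hist1h2br and H3c15. Windows shared with another gene also limit Hist1h2ap (91.0%), Hist1h4n (77.2%), H2bc12 (60.9%) and H2ac7 (59.3%), among others.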
